A study of Mus musculus with 11 samples.

Results

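The pore-forming alpha1 subunits of the voltage-gated calcium channels were read out gene by gene in hippocampal RNA-seq from mice with a deletion at Scn1a. The 8 members, Cacna1a, Cacna1b, Cacna1c, Cacna1d, Cacna1e, Cacna1g, Cacna1h and Cacna1i, were chosen by symbol as the alpha1 genes of the neuronal channel classes. The rule used no measured value, but it was set with earlier results of these data known. All 8 were present among the 23644 genes held by both count tables, and all 8 passed the filter on low counts in both comparisons. Scn1a encodes the NaV1.1 sodium channel alpha subunit, and the study asked how loss of its non-coding 1b regulatory interval changes gene expression.

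Voltage-gated calcium channels open on depolarization and let calcium into the neuron, where it triggers transmitter release, gene expression and changes of excitability. Each channel is built around 1 alpha1 subunit, which holds the pore, the voltage sensor and the site of most channel blockers. L-type channels couple activity to transcription in the cell body and dendrites, P/Q- and N-type channels drive release at terminals, R-type channels act in spines and terminals, and T-type channels open near rest and support burst firing. Several alpha1 genes, Cacna1a, Cacna1g and Cacna1h among them, are known from inherited or experimental epilepsies.

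The 11 libraries came from 2 sequencing rounds of hippocampus from C57BL/6N mice, adult by the labels and at postnatal day 32 by the study's methods. The heterozygous round, with paired-end reads, held 3 WT males and 4 1b+/- mice, of which replicates 1 to 3 were male and replicate 4 was female. The homozygous round, with single-end reads, held 2 WT females and 2 1b-/- mice, of which replicate 1 was male and replicate 2 female. Mutants carried 1 or 2 copies of a Cas9-made deletion of the conserved 1b interval, kept as a single line by repeated crossing to wild-type mice of the same strain. Part of the 1b-/- mice died before weaning in the study, so the 1b-/- libraries stand for survivors. Each library was a separate sample by its label, and the p-values below measure the spread between these samples. Replicate numbers were given in the order of the records and pair no mice.

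Total counts ran from 20667122 to 36145161 per library, and the members had between 1011 and 10226 counts in a library, so the spread between mice, not counting error, limited the comparisons. Scn1a had 91.2, 83.4, 96.7 and 119.4 CPM (counts scaled to library size) in the 1b+/- mice against 171.0, 112.9 and 123.2 CPM in their WT mice. It had 26.3 and 16.7 CPM in the 1b-/- mice against 133.8 and 172.7 CPM in theirs. With edgeR's quasi-likelihood test and Benjamini-Hochberg adjustment over all genes tested, used for every adjusted p below, the log2 fold change of Scn1a was -0.47 (SE 0.15, adjusted p = 0.303) in 1b+/- and -2.83 (SE 0.27, adjusted p = 0.0211) in 1b-/- mice. With its own edgeR model the study reported Scn1a as significantly lower in both genotypes at this age. It also reported other genes as differentially expressed in 1b+/- mice. In 1b+/- mice the change shrank to -0.27 (adjusted p = 0.316) without WT replicate 1, and it was called (-0.38, adjusted p = 0.0223) without both libraries highest in thalamus markers, WT replicate 1 and 1b+/- replicate 4, an alternative added after seeing the data. The call in 1b-/- mice was lost without WT replicate 1 of its round (adjusted p = 0.101) or WT replicate 2 (-2.64, adjusted p = 0.0601).

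The WT libraries of the homozygous round stood apart from the rest in markers of neighbouring tissue. The summed level of the striatum markers was 9447 and 3967 CPM there, against 329 and 361 CPM in the 1b-/- mice and 286 to 515 CPM in the heterozygous round, with Penk and Ppp1r1b highest. In the homozygous comparison 11 of 13 striatum markers and 4 of 7 basal forebrain cholinergic markers were called lower. All 13 and all 7 were fitted below 0. Dentate granule cell markers summed to 325 to 331 CPM in these WT libraries against 437 to 447 CPM in the 1b-/- mice. CA1 pyramidal cell markers summed to 356 to 387 CPM against 667 to 955 CPM. The sums hid wider gaps in single genes. Called higher were the dentate markers C1ql2 (means 1.79 and 73.7 CPM), Lct (1.13 and 39.4 CPM) and Prox1 (14.9 and 51.5 CPM). So were the CA1 markers Fibcd1 (14.1 and 155 CPM) and Gpr161 (1.98 and 16.3 CPM). Of the 9 dentate markers 2 were fitted below 0, and of the 7 CA1 markers 1. No listed marker was at 0 in every library. In the heterozygous comparison no listed marker passed the adjusted threshold. At an unadjusted p under 0.05, met by 11.3% of all genes, there were 6 of 8 GABAergic interneuron markers (7 of 8 fitted below 0) and 7 of 13 striatum markers (12 of 13 below 0). So were 4 of 7 CA1 markers (7 of 7 above 0), 4 of 9 dentate markers (7 of 9 above 0) and 2 of 6 oligodendrocyte markers (6 of 6 above 0). The neocortex list had 2 of 8, CA3 1 of 7 and astrocytes 1 of 6, and the thalamus, microglia and cholinergic lists had 0. Every value of the homozygous comparison below is read against these 2 WT libraries, and the part of the markers in it was not tested. In bulk tissue, fewer cells of a type and less RNA per cell cannot be told apart.

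A short coding sequence that differs between the classes is printed here. It shows which members are alike in this stretch, and no longer stretch was compared. The selectivity filter of a calcium channel is a ring of 4 acidic residues, 1 from each repeat of the alpha1 subunit, and the third repeat differs between the classes. The 27 bases of coding sequence around that residue are given 5′ to 3′ on the coding strand, from the longest coding transcript of each gene in the GENCODE annotation of mm9, with the codon of the filter residue in capitals.
Cacna1c: gtctccaccttcGAAgggtggccagag
Cacna1d: gtctcaacttttGAGggctggcccgcg
Cacna1a: gtgtccacaggaGAGggctggccacag
Cacna1b: gtgtccacgggaGAGgggtggcccatg
Cacna1e: gtctctacagggGAAggatggcctcag
Cacna1g: ctggcctccaagGATggctgggttgac
Cacna1h: ctgtcatccaagGATggctgggtaaac
Cacna1i: ttggcctccaagGATggctgggtgaac

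The 5 high-voltage-activated members, Cacna1a to Cacna1e, had a glutamate codon in capitals (GAG or GAA), and the 3 T-type members had an aspartate codon (GAT). Between T-type members 23 or 24 of the 27 bases were identical. Between a T-type and a high-voltage-activated member 11 to 15 were identical, and among the high-voltage-activated members 17 to 22. In mm9 the stretches lie at chr6:118604473-118606156 on the minus strand for Cacna1c and chr14:30912429-30913908 on the minus strand for Cacna1d. They lie at chr8:87105225-87107458 on the plus strand for Cacna1a, chr2:24506148-24506626 on the minus strand for Cacna1b and chr1:156291132-156292027 on the minus strand for Cacna1e, and in each of these 5 genes an intron interrupts the window. In the T-type genes the window sits inside a single exon, at chr11:94287773-94287799 on the minus strand for Cacna1g, chr17:25520441-25520467 on the minus strand for Cacna1h and chr15:80207225-80207251 on the plus strand for Cacna1i.

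The members were expressed at different levels, compared here as CPM per kilobase of annotated exon and scaled over all 11 libraries. In WT mice of the heterozygous round Cacna1e stood highest at 25.4 ± 1.90 (SD, n = 3) CPM per kilobase. Cacna1c followed at 15.7 ± 0.992, Cacna1a at 15.2 ± 1.56 and Cacna1b at 14.5 ± 0.735. The T-type genes were lower, with Cacna1h at 10.8 ± 1.29, Cacna1i at 9.84 ± 0.380 and Cacna1g at 8.41 ± 1.99, and Cacna1d was lowest at 5.56 ± 0.483. The ranges of neighbours overlapped between Cacna1c and Cacna1a, Cacna1a and Cacna1b, Cacna1h and Cacna1i, and Cacna1i and Cacna1g, so those neighbours did not differ beyond their spread. No overlap was seen at the steps from Cacna1e to Cacna1c, from Cacna1b to Cacna1h or from Cacna1g to Cacna1d.

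The 1b+/- mice kept this order except that Cacna1a, at 17.4 ± 0.824 (SD, n = 4) CPM per kilobase, stood above Cacna1c at 14.9 ± 0.562, and these ranges did not overlap. Cacna1e was again highest, at 30.1 ± 2.13 CPM per kilobase, and Cacna1d lowest, at 5.66 ± 0.220.

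The homozygous round had another order. In its WT mice Cacna1a was highest at 16.9 ± 0.222 (SD, n = 2) CPM per kilobase, Cacna1i came second at 12.5 ± 2.51 and Cacna1e next at 11.7 ± 0.212, and the ranges of Cacna1i and Cacna1e overlapped. In the 1b-/- mice Cacna1a led at 21.2 ± 1.13, Cacna1h followed at 16.8 ± 5.61 and Cacna1e at 15.4 ± 0.0674. Cacna1i stood at the seventh place there, at 6.27 ± 2.10 CPM per kilobase, and Cacna1d at the last, at 4.93 ± 0.147, with overlapping ranges. Read type and marker levels also differed between the rounds, so a difference in level between rounds cannot be told apart from them. Per kilobase of the longest transcript Cacna1a stood above Cacna1c in WT mice of the heterozygous round as well, at ranks 2 and 3. On that scale the ranges of Cacna1e, 23.4 to 27.2, and Cacna1a, 19.4 to 23.9, overlapped, as did those of Cacna1b and Cacna1h. Cacna1e still ranked first there, with a mean of 25.4 against 21.9 for Cacna1a. Its rank was thus the same by both lengths, while the gap between its range and the next depended on the length used.

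**Figure D1:**
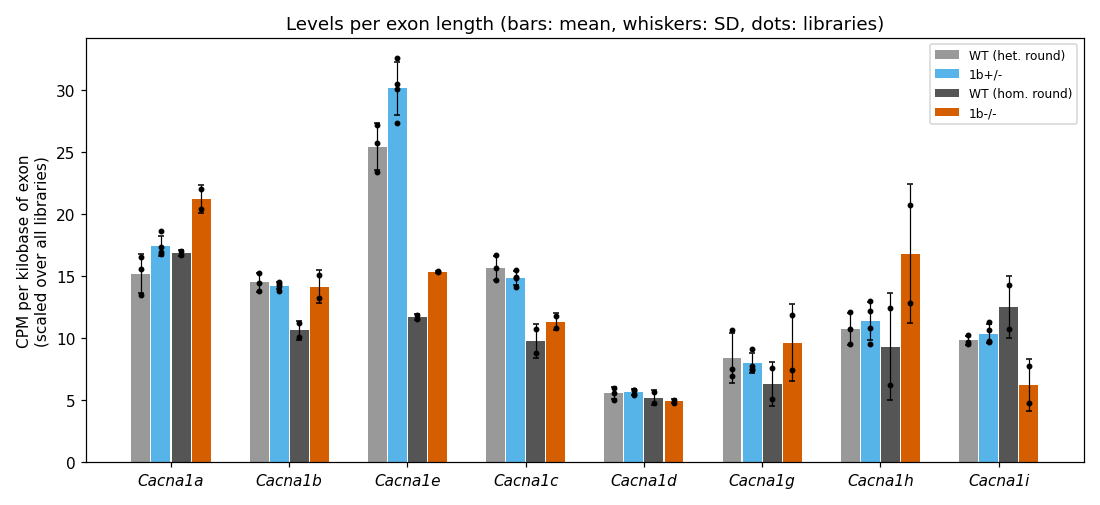
Level of each member in CPM per kilobase of annotated exon, scaled over all 11 libraries; bars are group means, whiskers the SD and dots the libraries (n = 3, 4, 2 and 2). Cacna1e stands highest in both groups of the heterozygous round, at 25.4 and 30.1, and Cacna1a in both groups of the homozygous round, at 16.9 and 21.2.

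Summed by class, the P/Q-, N- and R-type genes held 52.3% ± 0.734 (SD, n = 3) of the members' level per kilobase in WT mice of the heterozygous round and 55.1% ± 0.920 (n = 4) in the 1b+/- mice. The T-type genes held 27.6% ± 1.19 and 26.5% ± 0.449, and the L-type genes 20.1% ± 0.503 and 18.3% ± 0.665. The T-type share of the homozygous round was 34.1% ± 4.05 (n = 2) in WT and 32.7% ± 3.42 in 1b-/- mice. By group means the share of Cacna1i was lower in 1b-/- mice and those of Cacna1h and Cacna1g were higher. The groups overlapped for Cacna1h and Cacna1g, and the shares were not tested. Shares are parts of a whole, so a lower Cacna1i share by itself raises the others. Cacna1i held 15.1% ± 2.12 in WT and 6.42% ± 2.74 in 1b-/- mice, Cacna1h 11.2% ± 4.58 and 16.7% ± 3.98, and Cacna1g 7.77% ± 2.65 and 9.58% ± 2.18. The P/Q-, N- and R-type genes held 47.7% ± 3.90 and 51.0% ± 2.63 in that round, and the L-type genes 18.2% ± 0.153 and 16.3% ± 0.791.

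No member passed the adjusted threshold of 0.05 in either comparison with WT. In 1b+/- mice no gene did, with 0% of 14630 genes called. At an unadjusted p under 0.05 there were 11.3% of all genes, 5.32% higher and 5.95% lower, and 2 members, Cacna1a and Cacna1e, both higher. DESeq2 called 1 member there, Cacna1e, beside 1.65% of all genes. In 1b-/- mice 3.58% of 14838 genes were called, 2.06% higher and 1.52% lower. An unadjusted p under 0.05 was found for 26.4% of all genes, 13.6% higher and 12.8% lower, and for 4 members, Cacna1a, Cacna1b and Cacna1e as higher and Cacna1i as lower. The likelihood ratio test of edgeR called 1 member, Cacna1i, beside 12.3% of all genes. DESeq2 called 2, Cacna1e and Cacna1i, beside 14.4% of all genes. The median log2 fold change of the members was 0.05 in 1b+/- and 0.37 in 1b-/- mice, beside medians over all genes tested of 7.3e-04 and -0.0013. Fitted changes lay above 0 for 5 and 6 of the 8 members, beside 50.3% and 49.9% of all genes.

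The groups did not overlap for 2 members in 1b+/- mice, both higher, beside 4.69% of all genes not overlapping upwards and 6.25% downwards. In 1b-/- mice they did not overlap for 6 members, 5 of them higher and 1 lower. With 2 mice against 2 that is a weak criterion, since 59.7% of all genes met it, 29.5% upwards and 30.2% downwards. For single genes the exact two-sided permutation test of log2(CPM + 1) cannot go below 0.0286 with 4 against 3 mice, or below 0.3333 with 2 against 2.

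**Figure D2:**
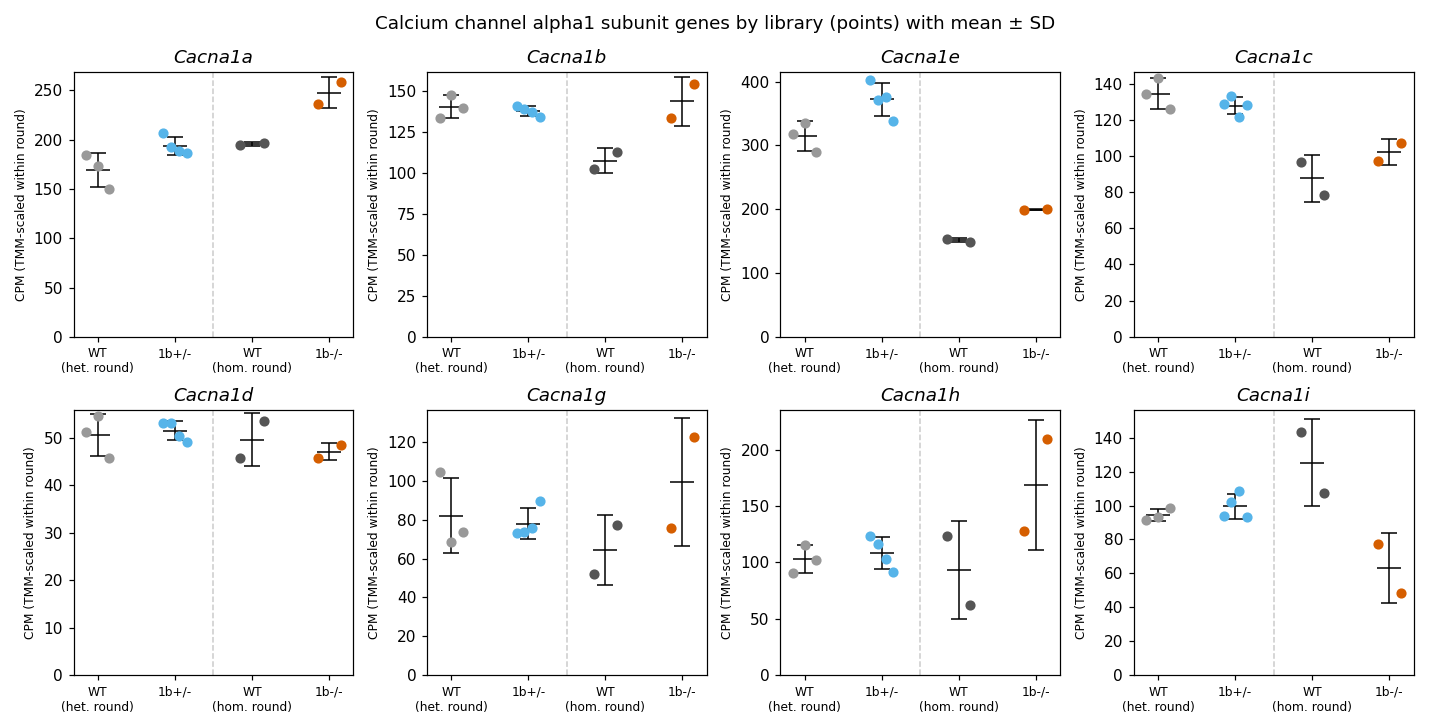
CPM of each member by library, TMM-scaled within the round, with mean ± SD; the dashed line parts the heterozygous round (left) from the homozygous round (right). Cacna1i is lower in both 1b-/- mice, at 77.6 and 48.5 CPM, than in either of their WT mice, at 143.4 and 107.4 CPM, and lies between 91.7 and 108.5 CPM in the heterozygous round.

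Cacna1c encodes the main L-type channel of the brain. It lies in mm9 at chr6:118542314-119146249 on the minus strand. It had 128.6, 133.3, 121.6 and 128.0 CPM in the 1b+/- mice and 134.4, 143.1 and 126.1 CPM in their WT mice. The groups overlapped, and the log2 fold change was -0.07 (SE 0.052, adjusted p = 0.635). The homozygous round gave 97.2 and 107.1 CPM in 1b-/- mice and 96.7 and 78.6 CPM in WT mice, a log2 fold change of 0.22 (SE 0.15, adjusted p = 0.391). It ran from 0.08 without WT replicate 2 to 0.38 without WT replicate 1. Both 1b-/- values were above both WT values, the lower of them by less than 1 CPM.

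Cacna1d encodes the other neuronal L-type channel, which opens at more negative voltages. It lies at chr14:30853135-31304342 on the minus strand. It had 53.2, 53.1, 50.5 and 49.2 CPM in the 1b+/- mice and 51.2, 54.6 and 45.9 CPM in their WT mice. Values of the homozygous round were 45.8 and 48.4 CPM in 1b-/- mice and 45.7 and 53.6 CPM in WT mice. The groups overlapped in both rounds. The log2 fold changes were 0.03 (95% interval -0.11 to 0.16, adjusted p = 0.911) and -0.08 (95% interval -0.42 to 0.27, adjusted p = 0.754), so a change of the size fitted for Cacna1i in 1b-/- mice lay outside both intervals. The first turned to -0.04 without WT replicate 3 of the heterozygous round and the second to 0.05 without WT replicate 2 of the homozygous round.

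Cacna1a encodes the P/Q-type channel of fast presynaptic terminals and Purkinje cells. It lies at chr8:86912339-87164145 on the plus strand. It had 206.9, 193.0, 188.9 and 186.6 CPM in the 1b+/- mice and 184.1, 173.3 and 150.0 CPM in their WT mice. Every 1b+/- mouse was above every WT mouse, with a mean 115% ± 5.39 of the WT mean. The log2 fold change was 0.20 (SE 0.068, 95% interval 0.04 to 0.35), with an adjusted p of 0.3333 and an exact permutation p of 0.0571. It was 0.12 (adjusted p = 0.744) without WT replicate 3.

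In 1b-/- mice Cacna1a had 236.5 and 258.6 CPM against 194.3 and 197.2 CPM in WT mice. Both mutants were above both WT mice, at 126% ± 7.98 of the WT mean. The log2 fold change was 0.34 (SE 0.12, 95% interval 0.03 to 0.64, adjusted p = 0.159). The estimates had the same sign in both genotypes, and their difference was 0.13 (95% interval -0.13 to 0.40, adjusted p = 0.434).

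Cacna1b encodes the N-type channel, the target of cone snail toxins. It lies at chr2:24459407-24618672 on the minus strand, the chromosome that also carries Scn1a at chr2:66108838-66278897. It had 140.8, 138.9, 137.4 and 134.1 CPM in the 1b+/- mice and 133.8, 147.9 and 139.6 CPM in their WT mice. The 1b+/- values lay inside the WT range, and the log2 fold change was -0.03 (95% interval -0.12 to 0.07, adjusted p = 0.851). It was 0.02 without WT replicate 2.

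Cacna1b in the homozygous round had 133.3 and 154.4 CPM in 1b-/- mice and 102.2 and 112.9 CPM in WT mice. Both mutants were above both WT mice, at 134% ± 13.9 of the WT mean, with a log2 fold change of 0.42 (SE 0.13, 95% interval 0.08 to 0.76, adjusted p = 0.133). The 1b-/- mice were near the level of the heterozygous round, and the WT mice of the homozygous round were the 2 lowest of the 11 libraries. Tested directly, the change in 1b-/- mice exceeded that in 1b+/- mice by 0.44 (SE 0.10, 95% interval 0.21 to 0.67, adjusted p = 0.0116).

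Cacna1e encodes the R-type channel, found in hippocampal spines and terminals. It lies at chr1:156239649-156573049 on the minus strand. It had 402.7, 372.0, 376.7 and 338.8 CPM in the 1b+/- mice and 318.0, 335.9 and 289.4 CPM in their WT mice. Every 1b+/- mouse was above every WT mouse, the closest pair being 338.8 and 335.9 CPM, and the mean was 118% ± 8.34 of the WT mean. The log2 fold change of 0.24 (SE 0.066, 95% interval 0.10 to 0.39) had the smallest p of the members in this comparison, 0.00473, and an adjusted p of 0.234. The exact permutation p was 0.0571, and DESeq2 gave an adjusted p of 0.0365.

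In 1b-/- mice Cacna1e had 198.48 and 200.02 CPM against 153.3 and 148.9 CPM in WT mice. Both mutants were above both WT mice, at 132% ± 0.723 of the WT mean, with a log2 fold change of 0.40 (SE 0.11, 95% interval 0.12 to 0.68, adjusted p = 0.108). DESeq2 gave an adjusted p of 0.0399. The difference between the genotypes was 0.15 (95% interval -0.11 to 0.40, adjusted p = 0.369). On the common scale of all 11 libraries the gene stood at 297 to 345 CPM in WT mice of the heterozygous round and at 147 to 151 CPM in those of the homozygous round. That gap between WT groups was wider than either fitted difference between genotypes within a round, and it runs along the round.

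Cacna1g encodes a T-type channel strongly expressed in thalamic relay neurons. It lies at chr11:94269705-94335414 on the minus strand. It had 73.2, 73.5, 75.8 and 89.7 CPM in the 1b+/- mice and 104.5, 68.3 and 73.8 CPM in their WT mice. The groups overlapped, with a log2 fold change of -0.08 (SE 0.14, adjusted p = 0.873). The highest library of each group, WT replicate 1 and 1b+/- replicate 4, was also the highest of its group in thalamus markers, at 682 and 488 CPM summed over 7 genes, where the other libraries of the round had 195 to 356 CPM. Rora and Prkcd were the highest of these markers in WT mice. Without both libraries the log2 fold change of Cacna1g was 0.06 (SE 0.051), and without the WT library alone it was 0.14 (SE 0.086).

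Cacna1g in the homozygous round had 75.9 and 122.6 CPM in 1b-/- mice and 51.9 and 77.4 CPM in WT mice. These groups overlapped as well, and the log2 fold change of 0.62 had a 95% interval of -0.14 to 1.38 (adjusted p = 0.256). It was 0.23 without 1b-/- replicate 2, 0.36 without WT replicate 1, 0.92 without 1b-/- replicate 1 and 0.94 without WT replicate 2. Thalamus markers summed to 174 and 232 CPM in these 1b-/- mice and to 141 and 191 CPM in the WT mice. In the 1b-/- mice the higher sum rested on Calb2, at 30.1 and 105.6 CPM, and the other 6 markers summed to 144 CPM in replicate 1 and 126 CPM in replicate 2, the library with more Cacna1g. Their part in the values was not tested.

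Cacna1h encodes the T-type channel most sensitive to nickel. It lies at chr17:25511230-25570728 on the minus strand. It had 123.6, 116.1, 103.4 and 91.3 CPM in the 1b+/- mice and 90.7, 115.2 and 102.1 CPM in their WT mice, with wide overlap. The log2 fold change was 0.08 (SE 0.11, adjusted p = 0.817), and -0.0018 without WT replicate 1. It varied widely between the libraries of the homozygous round, with 127.6 and 209.3 CPM in 1b-/- mice and 123.7 and 62.2 CPM in WT mice. Both mutants were above both WT mice, though the nearest pair was less than 4 CPM apart. The log2 fold change of 0.86 had a 95% interval of -0.13 to 1.85 (adjusted p = 0.236), and the mean was 181% ± 62.2 of the WT mean. Left-out libraries moved the log2 fold change, which was 0.45 without WT replicate 2 and 0.46 without 1b-/- replicate 2, and 1.44 without WT replicate 1.

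Cacna1i encodes the T-type channel with the slowest kinetics, known from the thalamic reticular nucleus. It lies at chr15:80117668-80228709 on the plus strand. It had 93.7, 102.3, 108.5 and 93.3 CPM in the 1b+/- mice and 91.7, 93.2 and 98.6 CPM in their WT mice. The 2 groups overlapped, with a log2 fold change of 0.07 (SE 0.061, 95% interval -0.06 to 0.21, adjusted p = 0.688).

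In the homozygous round Cacna1i had 77.6 and 48.5 CPM in 1b-/- mice and 143.4 and 107.4 CPM in WT mice. Both mutants were below both WT mice, at 50.3% ± 16.4 of the WT mean, and this was the only member whose groups parted downwards. The log2 fold change was -0.99 (SE 0.27, 95% interval -1.67 to -0.31), with the smallest p of the members in this comparison, 0.0130, and an adjusted p of 0.103. The exact permutation p was 0.3333, the smallest this design allows. The log2 fold change was -1.37 without 1b-/- replicate 1, the only male of the round. With sex as a covariate it was -1.37 (adjusted p = 0.0244), in a fit that called 722 of 14838 genes. These 2 fits leave the same female 1b-/- mouse against the WT females. Without 1b-/- replicate 2 the log2 fold change was -0.69, and without WT replicate 1 it was -0.76.

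On the common scale the WT mice of the homozygous round had 140.9 and 105.9 CPM of Cacna1i, against 94.1 to 111.4 CPM over all 7 libraries of the heterozygous round and 76.5 and 47.1 CPM in 1b-/- mice. WT replicate 1, with the highest Cacna1i, also had the highest summed striatum markers, 9447 CPM, and replicate 2 was second for the markers at 3967 CPM. The 1b-/- mice, at 329 and 361 CPM of striatum markers, were close to the heterozygous round in those markers and below its range in Cacna1i. Other lists parted the groups of the homozygous round as well. Neocortex markers summed to 484 and 597 CPM in WT mice and 380 and 222 CPM in 1b-/- replicates 1 and 2. In the heterozygous round they summed to 297 to 329 CPM. Interneuron markers summed to 1523 and 1236 CPM in WT and 948 and 916 CPM in 1b-/- mice. Oligodendrocyte and microglia sums were also lower in 1b-/- mice, and dentate, CA1, CA3 and astrocyte sums were higher. The part of the markers in the Cacna1i values was not tested.

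**Figure D3:**
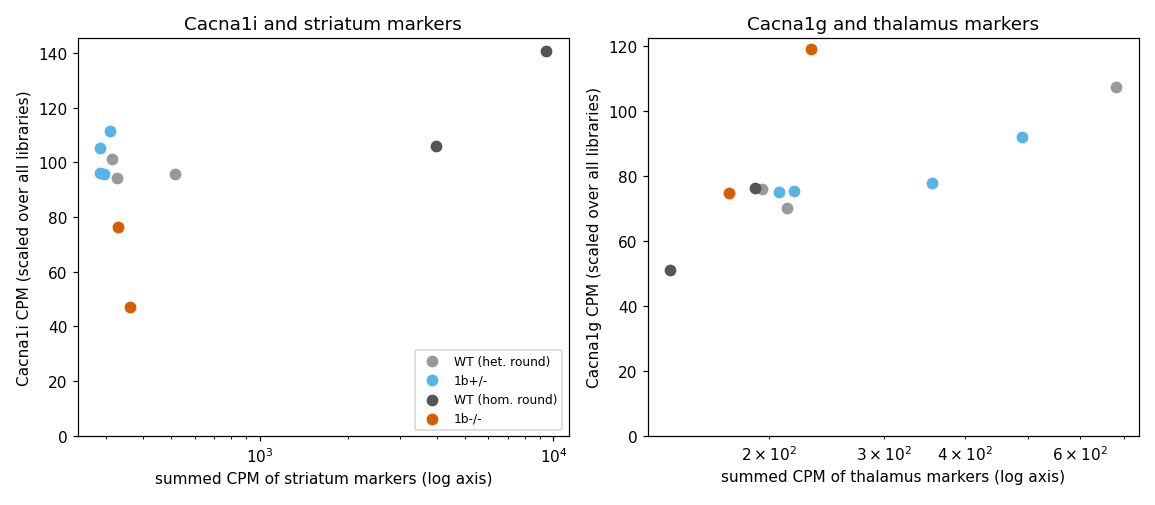
Level of Cacna1i against the summed striatum markers, and of Cacna1g against the summed thalamus markers, in CPM scaled over all 11 libraries (1 point per library, log horizontal axes). The 2 WT libraries of the homozygous round stand apart to the right for the striatum markers, at 3967 and 9447 CPM. The 1b-/- libraries lie lowest for Cacna1i at striatum marker levels similar to the heterozygous round. Other marker lists that parted the groups of the homozygous round are not drawn.

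Whether the 2 genotypes changed the members differently was tested in 1 fit over all 11 libraries, as the change in 1b-/- mice minus the change in 1b+/- mice. Each change was taken against the WT mice of its own round. In this test 27.3% of 14905 genes were called, 14.3% higher and 13% lower, and 2 of the 8 members were among them. Cacna1b was called higher by 0.44, as given above. Cacna1i was called lower, with a difference of -1.07 (SE 0.24, 95% interval -1.61 to -0.53, adjusted p = 0.00956). Both calls held under all 18 alternatives, with adjusted p from 0.00125 to 0.0395 for Cacna1b and from 2.3e-04 to 0.0291 for Cacna1i. The difference carries the round and the marker levels of the WT libraries with it, and these cannot be told apart from genotype.

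Of the other members, the difference was 0.29 for Cacna1c (adjusted p = 0.113), 0.68 for Cacna1g (adjusted p = 0.142), 0.77 for Cacna1h (adjusted p = 0.148) and -0.11 for Cacna1d (adjusted p = 0.546). The intervals of Cacna1g, -0.03 to 1.40, and Cacna1h, -0.05 to 1.58, were the widest. Without WT replicate 1 of the homozygous round Cacna1c was at 0.44 and Cacna1h at 1.34, and without 1b-/- replicate 1 Cacna1g was at 0.98. In the other direction, without WT replicate 2 of that round Cacna1c was at 0.14 and Cacna1h at 0.35, and without 1b-/- replicate 2 Cacna1g was at 0.31 and Cacna1h at 0.38. Cacna1g was at 0.42 without WT replicate 1.

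**Figure D4:**
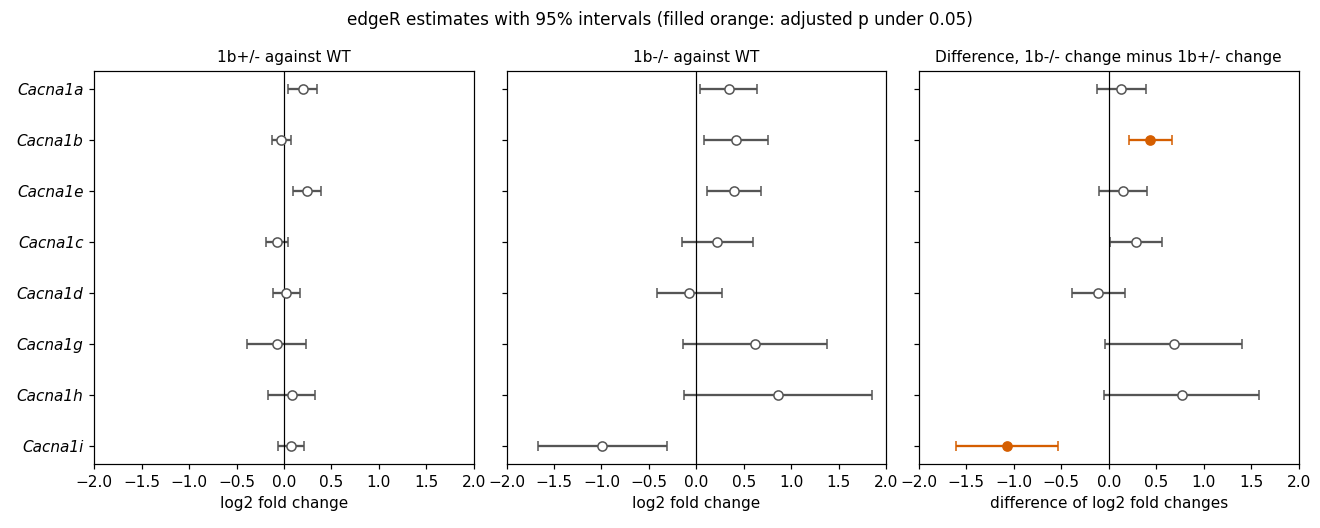
Log2 fold change of each member with its 95% interval from edgeR in 1b+/- mice (4 against 3 WT), in 1b-/- mice (2 against 2 WT) and the difference between both changes; filled orange points have an adjusted p under 0.05. No point is filled in the first 2 panels, and Cacna1b, at 0.44, and Cacna1i, at -1.07, are filled in the third.

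The genes whose levels moved most like a member were sought by Pearson's r of log2(CPM + 1), centred within each round, over 11 libraries and 11302 genes. These points share libraries and rounds, and r is given as a description. For Cacna1i the 3 highest were Rhobtb2 (r = 0.978), Pde8b (r = 0.974) and Gsg1l (r = 0.972). Within the 7 libraries of the heterozygous round the same genes had r of -0.06, 0.24 and 0.29, so their likeness to Cacna1i lay in the 4 libraries of the homozygous round. For Cacna1e they were Vps13c (r = 0.980), Mis18a (r = 0.948) and Ep400 (r = 0.941), with r of 0.981, 0.933 and 0.897 in the heterozygous round alone.

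An alpha1 subunit reaches the membrane and gates normally only with partners. The beta subunit binds it from the cytoplasm, the alpha2delta subunit from outside the cell, and gamma subunits are mostly known as partners of AMPA receptors. Small G proteins such as Gem and Rem2, Stac adaptors and calmodulin tune the channel. Of 29 listed partner genes, 25 were tested in each comparison. By edgeR's quasi-likelihood test 0 were called in 1b+/- mice, where 3 had an unadjusted p under 0.05, beside 11.3% of all genes. Stac2 alone was called by the likelihood ratio test and by DESeq2, which called 1.31% and 1.65% of all genes. In 1b-/- mice 1 was called, beside 3.58% of all genes, and 13 had an unadjusted p under 0.05, beside 26.4%. The likelihood ratio test called 10 and DESeq2 called 11, beside 12.3% and 14.4% of all genes.

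The 2 alpha1 genes of retina and muscle, Cacna1f and Cacna1s, summed to at most 2.47 CPM in any library and were not called in the comparison in which each was tested. Of the beta subunit genes 0 of 4 were called in either comparison, and both other tools called 1, Cacnb4, as lower in 1b-/- mice. In 1b+/- mice the 3 partners with the smallest p were Stac2 (log2 fold change 0.37, SE 0.086, adjusted p = 0.168), Cacnb3 (-0.18, SE 0.052, adjusted p = 0.260) and Cacnb4 (0.21, SE 0.084, adjusted p = 0.392). Stac2 was higher in 4 of 4 and Cacnb3 lower in 4 of 4 mutants than in any WT mouse, and the Cacnb4 groups overlapped. Without WT replicate 1 Cacnb4 was called (0.33, adjusted p = 0.0132). Of the alpha2delta genes 0 of 4 were called in either comparison, and in 1b-/- mice all 4 were fitted below 0, with a median of -0.82 beside -0.0013 over all genes. There 3 had an unadjusted p under 0.05, and the likelihood ratio test called 2 and DESeq2 called 3 of them.

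Of the 7 gamma genes tested in 1b-/- mice 3 were fitted above 0 and 4 below. By the quasi-likelihood test 5 had an unadjusted p under 0.05. The likelihood ratio test and DESeq2 called 4, Cacng8 as higher and Cacng1, Cacng2 and Cacng4 as lower. The quasi-likelihood test called 1, as higher, Cacng8, a partner of hippocampal AMPA receptors. It had 76.2 and 102.5 CPM in 1b-/- mice and 33.0 and 25.1 CPM in WT mice, a log2 fold change of 1.62 (SE 0.22, adjusted p = 0.0313). Both mutants were above both WT mice. The heterozygous round, scaled by itself and with another read type, lay between 55.1 and 70.1 CPM with no separation of its groups. The CA1 and dentate marker sums given above were also lower in these 2 WT libraries than in 1b-/- mice. Their part in this change was not tested. The call was lost without WT replicate 1 (1.83, adjusted p = 0.101) or WT replicate 2 (1.44, adjusted p = 0.0892) of the homozygous round. The next smallest p in this comparison were those of Cacng4 (-1.54, SE 0.30, adjusted p = 0.0597) and Cacng1, the skeletal muscle subunit, which had 43 and 18 counts in WT and 2 and 2 counts in 1b-/- libraries (adjusted p = 0.0612).

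In the test of the difference between the genotypes 10 of 27 partners were called, beside 27.3% of all genes. Differences were positive for Cacng8 (1.57), Calm3 (0.75) and Stac (1.75) and negative for the other 7. Those were Cacnb4 (-1.44, adjusted p = 0.00596), Cacna2d2 (-0.94), Cacna2d3 (-0.80), Cacng2 (-0.91), Cacng4 (-1.37), Stac3 (-1.497) and Cabp1 (-0.66). Cacnb4, a beta subunit, had 140.8 and 78.5 CPM in 1b-/- mice and 222.3 and 289.9 CPM in WT mice of that round. The alpha2delta genes Cacna2d2 and Cacna2d3 stood at 110 to 155 and 178 to 271 CPM in the WT mice of the homozygous round on the common scale, against 37.02 to 52.2 and 104 to 149 CPM in the heterozygous round. Of the 1b-/- values, both of Cacna2d3, 142.6 and 141.0 CPM, lay within the range of the heterozygous round, and those of Cacna2d2 were 49.3 CPM, within it, and 84.3 CPM, above it and below both WT libraries. The striatum markers of those WT libraries are given above. Their part in these differences was not tested.

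**Figure D5:**
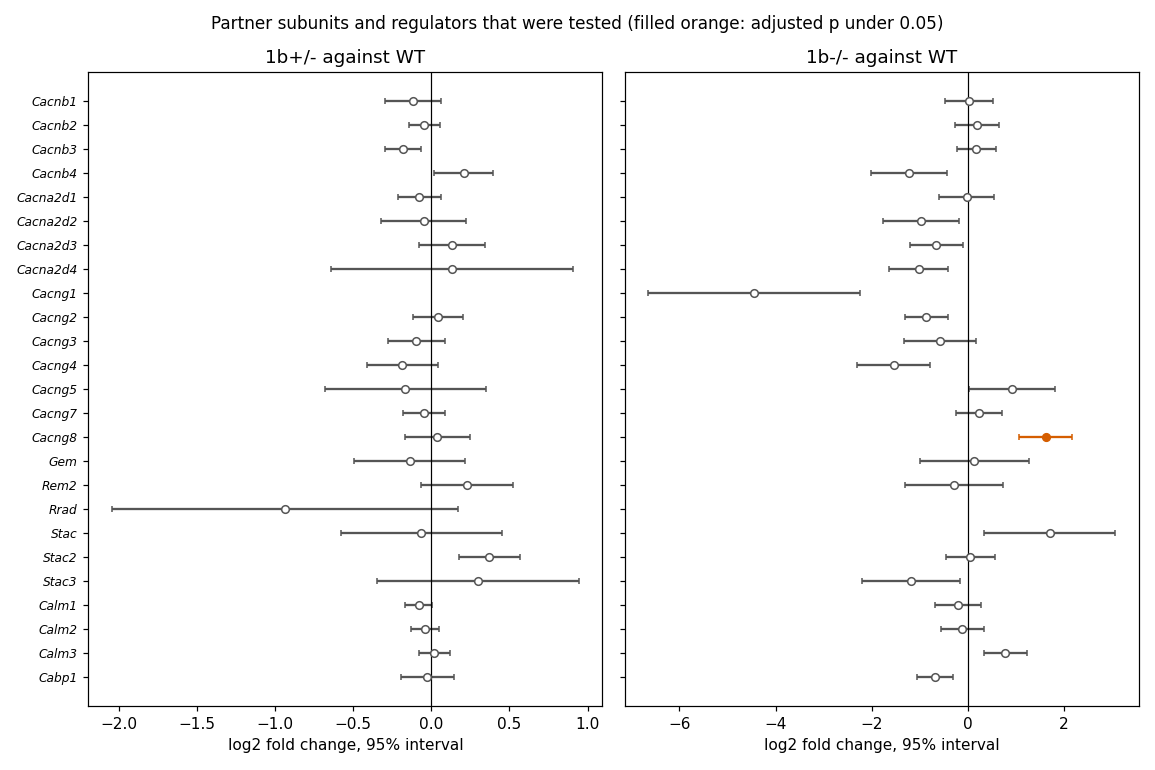
Log2 fold change with 95% interval of the tested beta, alpha2delta and gamma subunits and channel regulators in 1b+/- mice (left) and 1b-/- mice (right), on axes of different width. Cacng8 at 1.62 in 1b-/- mice is the only filled point, the one with an adjusted p under 0.05.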

How the data were processed

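RNA-seq libraries of hippocampus from 11 mice were used. The authors deposited unnormalized read counts for each gene, in 1 table per sequencing round. Per the submitters' processing notes, reads were aligned to mm9 with STAR 2.7.2 and counted with featureCounts. The strand setting of the counting is not given in the sources used here, so overlapping and antisense genes are uncertain. Columns were matched by library name, since the sample descriptions name the tables crosswise, and 0 columns were left unused. Each table holds 27 symbols turned into dates, with 0.3% to 0.372% of the counts.

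A gene was tested if any library reached 1 CPM, with edgeR 4.0.16 in R 4.3.3 (TMM factors, quasi-likelihood F test, Benjamini-Hochberg adjustment, threshold 0.05). Mutants were set against WT mice sequenced with them, and the difference between genotypes was fitted over the 11 libraries. Replicates of a group differed by more than sampling noise. The common coefficient of biological variation was 9.13% in the heterozygous comparison and 22.9% in the homozygous one. SE is the absolute log2 fold change over the square root of F. CPM values are TMM-scaled within the round unless said to be on the common scale. Exact permutation tests used a pseudocount of 1. Lengths and sequences came from mm9 and GENCODE M1.

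The members and lists were chosen with earlier results of these data known. Named were the 8 members, Scn1a, each partner called in a test, the 3 partners with the smallest p in each test, the 3 genes most like each of the 2 members with the smallest p in 1b-/- mice (among genes averaging at least 5 CPM), and the 2 genes highest in WT mice of a marker list beside a result. The 11 marker lists also held CA3 pyramidal cell (3 of 7 higher and 1 lower in 1b-/- mice), dentate (3 of 9 higher), CA1 (2 of 7 higher), neocortex (3 of 8 lower), interneuron (1 of 8 lower), oligodendrocyte, astrocyte and microglia genes (0 of 6 each), and 0 of 7 thalamus markers were called. No marker passed the adjusted threshold in 1b+/- mice. The dentate and CA1 markers called in 1b-/- mice were named as well. Alternatives were edgeR's likelihood ratio test, DESeq2 1.42.0, other scaling factors (RLE, upper quartile), other filters (filterByExpr, none), a covariate for sex, a joint fit of 11 libraries, and leaving out single libraries. The fitting code was tested on simulated data.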

Additional observations from a re-analysis of the deposited data

Results flagged for a closer look

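Cacna1g reached 89.7 CPM in 1b+/- replicate 4, the female of the group, while the other 3 mice of the group lay between 73.2 and 75.8 CPM. Of 9 groups of 4 mice examined for a library that stands apart (the 8 members and Scn1a in the 1b+/- mice), this was the only one found, and chance alone would mark about 1 group in 20. The same library was the highest of its group in summed thalamus markers, at 488 CPM.

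The test of the difference between the genotypes marked 3 of the 9 genes, 2 of them members, in a test that called 27.3% of all genes. Relative to 1b+/- mice, the log2 fold change in 1b-/- mice was higher by 0.44 for Cacna1b and differed by -1.07 for Cacna1i. For Scn1a, the targeted gene, the difference was -2.36 (adjusted p = 8.7e-04 by edgeR's quasi-likelihood test). These differences compare rounds with different read types and different marker levels in their WT mice, and the part of either was not tested.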

How the results depend on the processing

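In the heterozygous comparison 0 genes were called, but 191 by the likelihood ratio test, 242 by DESeq2, 44 with no filter, 0 to 421 with 1 library left out (421 without WT replicate 1) and 408 without both libraries highest in thalamus markers, an alternative chosen after seeing the data. Members called were 0, but 1 by DESeq2. In the homozygous comparison 531 genes became 1829 by the likelihood ratio test, 2144 by DESeq2, 1029 with no filter, 5541 with all 11 libraries in 1 fit and 0 to 693 with 1 library left out (0 without WT replicate 1 and 192 without WT replicate 2). Members called were 0, but 1 by the likelihood ratio test, beside 1829 of 14838 genes, and 2 by DESeq2, beside 2144. With sex as a covariate 1 was called, beside 722 of 14838 genes, and with all 11 libraries in 1 fit 5, beside 5541 of 14905. In the difference test members called ranged from 2 to 4 with 1 library left out (4 without WT replicate 1 of the homozygous round).

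With 1 library left out, log2 fold changes in 1b+/- mice ran from -0.0609 to 0.0175 for Cacna1b (above 0 without WT replicate 2), from -0.0388 to 0.0899 for Cacna1d (below 0 without WT replicate 3), from -0.1869 to 0.1361 for Cacna1g (above 0 without WT replicate 1) and from -0.0018 to 0.1776 for Cacna1h (below 0 without WT replicate 1). Cacna1g was at 0.0621 without both thalamus-high libraries. Cacna1d ran from -0.1835 to 0.0451 in 1b-/- mice and from -0.2254 to 0.0053 in the difference, above 0 in both without WT replicate 2 of the homozygous round. The estimates of these genes in the comparisons named had not passed the threshold. Of 128, 96 and 144 alternative values of the members in the heterozygous, homozygous and difference tests, 122, 85 and 139 kept their direction and their side of the threshold. The cause of these changes was not tested. No paired analysis was possible because the labels give the groups no shared replicate numbers.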
